A study of Mus musculus with 40 samples.

Results

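The transcripts described here are those of 10 core genes of the circadian clock, namely Arntl, Clock, Npas2, Cry1, Per1, Per2, Per3, Ciart, Nr1d1 and Dbp, chosen by name from gene count tables of mouse aorta and kidney. All 10 were found among the 55335 genes of the aorta table and the 55382 genes of the kidney table, and all 10 passed the filter on low counts that left 15122 genes in aorta and 15943 in kidney. The 40 poly(A) RNA-seq libraries were 20 aortas, labelled R-1 to R-20, and 20 kidneys, labelled a1 to a20, and each tissue held 4 groups with 5 libraries each. The KO mice carried loxP-flanked Egfr alleles and a Tek-Cre transgene on a C57BL/6 background, so that Cre driven by the Tie2 (Tek) promoter deleted the first exon of Egfr in endothelial cells from development on. This promoter is also active in blood-forming cells. The WT mice carried the same Tek-Cre transgene without loxP sites. Mice of both genotypes received either a standard fat diet (SFD), with 10% of its energy from fat, or a high fat diet (HFD), with 60%, for 18 weeks from an age of 6 weeks. All mice were kept under 12 hours of light and 12 hours of darkness. The clock time at which tissue was taken, and the sex of the animals, are not given in the sources used here, and nothing in the labels ties an aorta to a kidney of the same mouse.

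In mammals nearly every cell, in aorta and kidney as elsewhere, keeps a transcriptional clock. BMAL1, the product of Arntl, pairs with CLOCK or NPAS2 and activates genes through E-box elements, among them the Per, Cry, Nr1d1, Dbp and Ciart genes, and the PER and CRY proteins then repress BMAL1 and its partner. NR1D1 (REV-ERBα) represses Arntl and Npas2 through RORE elements, DBP activates genes through D-box elements, and across the day Arntl and Npas2 transcripts peak when those of Dbp, Nr1d1 and Per3 are low.

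The promoters hold several of these elements, for genes whose relations to each other are described further down. Every stretch with a match before the annotated start is shown. RefSeq promoters of the GRCm38.p6 assembly, each 300 bases long from 250 before to 50 after an annotated start, were present for 9 of the 10 genes, in 13 windows. They were searched on both strands for the E-box CACGTG, the E'-box CACGTT and the D-box TTATGNAA. TNGGTCA, a loose form of the RORE core with any base at N, was searched in the same way. Of 32851 promoters in the same reference, 7.15% held the E-box, 4.68% the E'-box, 3.38% the D-box and 11% TNGGTCA. At least 1 match lay in the promoters of 6 genes. Ciart held 3 E-boxes, Per3 a pair of D-boxes and a TNGGTCA match, and Arntl a pair of TNGGTCA matches in its first window. Cry1 held an E'-box and an E-box, Per1 an E-box and a D-box, and Nr1d1 an E'-box. The second window of Arntl held the same pair. It also held TAGGTCA at position 31 after its annotated start, which is not shown. Only this match has A at the open base, and the TNGGTCA matches shown have T or C there. The windows of Npas2, Clock and Dbp held none of these letters, and Per2 was not among the promoters. Each line gives the strand of the gene 5′ to 3′, with the matches in capitals, and none of these bases lies in an annotated exon.
Ciart, chr3:95882252-95882359, minus strand: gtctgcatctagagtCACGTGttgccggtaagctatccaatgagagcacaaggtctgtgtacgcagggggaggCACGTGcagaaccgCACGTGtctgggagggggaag
Per3, chr4:151044762-151044885, minus strand: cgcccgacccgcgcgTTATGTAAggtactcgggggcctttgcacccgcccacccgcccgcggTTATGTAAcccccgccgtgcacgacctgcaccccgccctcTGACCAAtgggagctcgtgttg
Arntl, chr7:113207250-113207305, plus strand: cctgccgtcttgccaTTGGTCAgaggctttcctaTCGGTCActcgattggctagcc
Cry1, chr10:85185094-85185148, minus strand: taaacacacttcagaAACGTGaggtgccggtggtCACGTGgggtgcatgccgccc
Per1, chr11:69098768-69098947, plus strand: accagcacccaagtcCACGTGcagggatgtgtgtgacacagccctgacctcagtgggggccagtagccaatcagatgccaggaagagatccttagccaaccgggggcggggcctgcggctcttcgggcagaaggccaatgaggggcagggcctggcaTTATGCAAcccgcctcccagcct
Nr1d1, chr11:98775385-98775420, minus strand: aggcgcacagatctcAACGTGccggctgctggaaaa
In Ciart the E-boxes start 116, 58 and 44 bases before the annotated start, and in Per3 the D-boxes start 205 and 158 bases before it. A match of letters does not show that a factor binds there.

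The libraries held 17520161 to 36452741 counts in aorta (median 19683938) and 19643033 to 48833447 in kidney (median 24182781). Levels are given as FPM, the count scaled by TMM to a common library size of 1000000. Smooth muscle markers summed to 23957 to 38819 FPM in every aorta although Tagln and Cnn1 were listed at 0, and proximal tubule markers to 6200 to 8144 FPM in every kidney. Aortas R-11 (KO SFD) and R-16 (KO HFD) stood apart with lymphoid markers at 37.7 and 74.3 FPM against at most 7.70 FPM in the other 18, with Cd3e and Cd3g at 0 in all aortas, and with red blood cell markers at 80124 and 61110 FPM against at most 44483 FPM. Kidneys a8, a9 (both KO SFD) and a17 (WT SFD) stood apart with 11 immediate-early genes, which transiently respond to stimulation, summing to 2578 to 2799 FPM against 137 to 265 FPM in the other 17, and with none of the 11 at 0. Aortas R-1 (WT SFD) and R-12 (KO SFD) differed by less than sampling noise although their labels name different genotypes, and so did kidneys a1 (KO HFD) and a12 (WT HFD). The median chi-square over genes was 0.0277 and 0.0269 in these 2 pairs, against 0.455 for sampling noise and at least 1.60 for every other pair. Each pair was counted as 1 library in correlations, leaving 19 a tissue, and comparisons between groups were also made without them. The libraries of these pairs were the deepest of their tissues. Both aortas are SFD and both kidneys HFD, so the averaged diet comparisons that keep a pair count it as 2 libraries on 1 side. Egfr, the targeted gene, was at 39.6 ± 8.93 FPM (SD, n = 5) in WT SFD aortas and its KO-minus-WT difference averaged over diets was 0.14 on the log2 scale in aorta (adjusted p = 0.729) and -0.01 in kidney (adjusted p = 0.990), so that a loss of Egfr was not detected in either whole tissue. The count covers the whole gene, with exons outside the deleted part, so it cannot check the labels. In bulk tissue, fewer cells of a type and less RNA per cell cannot be told apart.

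Per kilobase of annotated exon, Nr1d1 and Dbp were the most abundant members in both tissues and Cry1 the least. In aorta the mean level over 20 libraries was 46.8 ± 19.4 FPM per kilobase (SD) for Nr1d1, 23.0 ± 31.3 for Dbp and 12.2 ± 8.15 for Per1. Npas2 stood at 10.5 ± 5.13 FPM per kilobase, Per2 at 8.65 ± 4.27, Clock at 7.79 ± 2.48 and Arntl at 5.58 ± 2.68, and Per3, Ciart and Cry1 were between 2.46 and 3.22. In kidney the order was Dbp (20.9 ± 16.7 FPM per kilobase), Nr1d1 (18.0 ± 4.69), Per1 (7.81 ± 8.15), Per2 (4.58 ± 2.57) and Clock (3.37 ± 0.895), followed by Per3, Ciart, Arntl, Npas2 and Cry1 between 1.08 and 3.13. The gap between neighbours in either order was smaller than the larger of their 2 SDs, except between Nr1d1 and Per1 in kidney. Npas2, an alternative partner of BMAL1, came before Per2, Clock and Arntl in aorta but next to last in kidney.

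Arntl (chr7:113207465-113314126, GRCm38), which encodes BMAL1, varied more between libraries of 1 group than nearly all other genes. In WT aortas it was at 36.3, 41.3, 37.3, 58.1 and 56.0 FPM under SFD (R-1 to R-5) and at 16.6, 0.825, 28.6, 58.0 and 66.1 FPM under HFD (R-6 to R-10). In KO aortas it was at 3.72, 36.8, 60.0, 46.7 and 62.8 FPM under SFD (R-11 to R-15) and at 11.7, 52.8, 58.9, 52.8 and 54.6 FPM under HFD (R-16 to R-20). The 4 lowest aortas, R-7, R-11, R-16 and R-6, came from 3 groups, and all 4 group ranges overlapped. The highest aorta, R-10, held 80.2 times the level of the lowest, R-7, and both were WT HFD; the lowest value rested on 15 counts. In WT kidneys Arntl was at 0.832, 16.3, 4.42, 26.4 and 8.11 FPM under SFD (a16 to a20) and at 1.60, 5.12, 10.9, 12.0 and 12.3 FPM under HFD (a11 to a15). In KO kidneys it was at 1.37, 18.9, 2.33, 15.8 and 21.3 FPM under SFD (a6 to a10) and at 5.12, 3.0, 21.8, 16.1 and 7.78 FPM under HFD (a1 to a5). Every kidney group held libraries at or below 5.12 FPM and libraries above 12 FPM.

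Npas2 (chr1:39193731-39363236) and Clock (chr5:76209868-76304792) encode the alternative partners of BMAL1. Npas2 ranged from 3.52 FPM in aorta R-7 to 98.6 FPM in R-10, with a median of 55.1 FPM, and from 0.832 FPM in kidney a16 to 17.6 FPM in a19, with a median of 4.56 FPM. The lowest and highest libraries for Npas2 were thus those for Arntl, in both tissues. Clock moved over a narrower range, from 42.6 to 167 FPM in aorta, 3.92-fold, and from 29.7 to 74.9 FPM in kidney, 2.52-fold.

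Dbp (chr7:45705088-45710203), an output gene of the clock whose product is a PAR-bZIP transcription factor, moved the other way. In WT aortas it was at 61.3, 28.8, 45.9, 7.44 and 12.7 FPM under SFD and at 168, 320.1, 62.5, 6.20 and 11.2 FPM under HFD, in the order of the labels. In KO aortas it was at 266, 61.1, 12.9, 18.6 and 5.26 FPM under SFD and at 207, 27.1, 14.2, 13.5 and 27.5 FPM under HFD. The 4 aortas lowest in Arntl, R-7, R-11, R-16 and R-6, were the 4 highest in Dbp, and in the same order. In WT kidneys Dbp was at 179, 26.8, 73.2, 8.22 and 63.8 FPM under SFD and at 112, 67.7, 36.1, 40.4 and 29.4 FPM under HFD. In KO kidneys it was at 162, 18.5, 137, 29.7 and 17.6 FPM under SFD and at 67.5, 86.0, 13.3, 23.9 and 58.3 FPM under HFD. Kidneys a16, a6, a11 and a8, lowest in Arntl, were the 4 highest in Dbp.

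**Figure D1:**
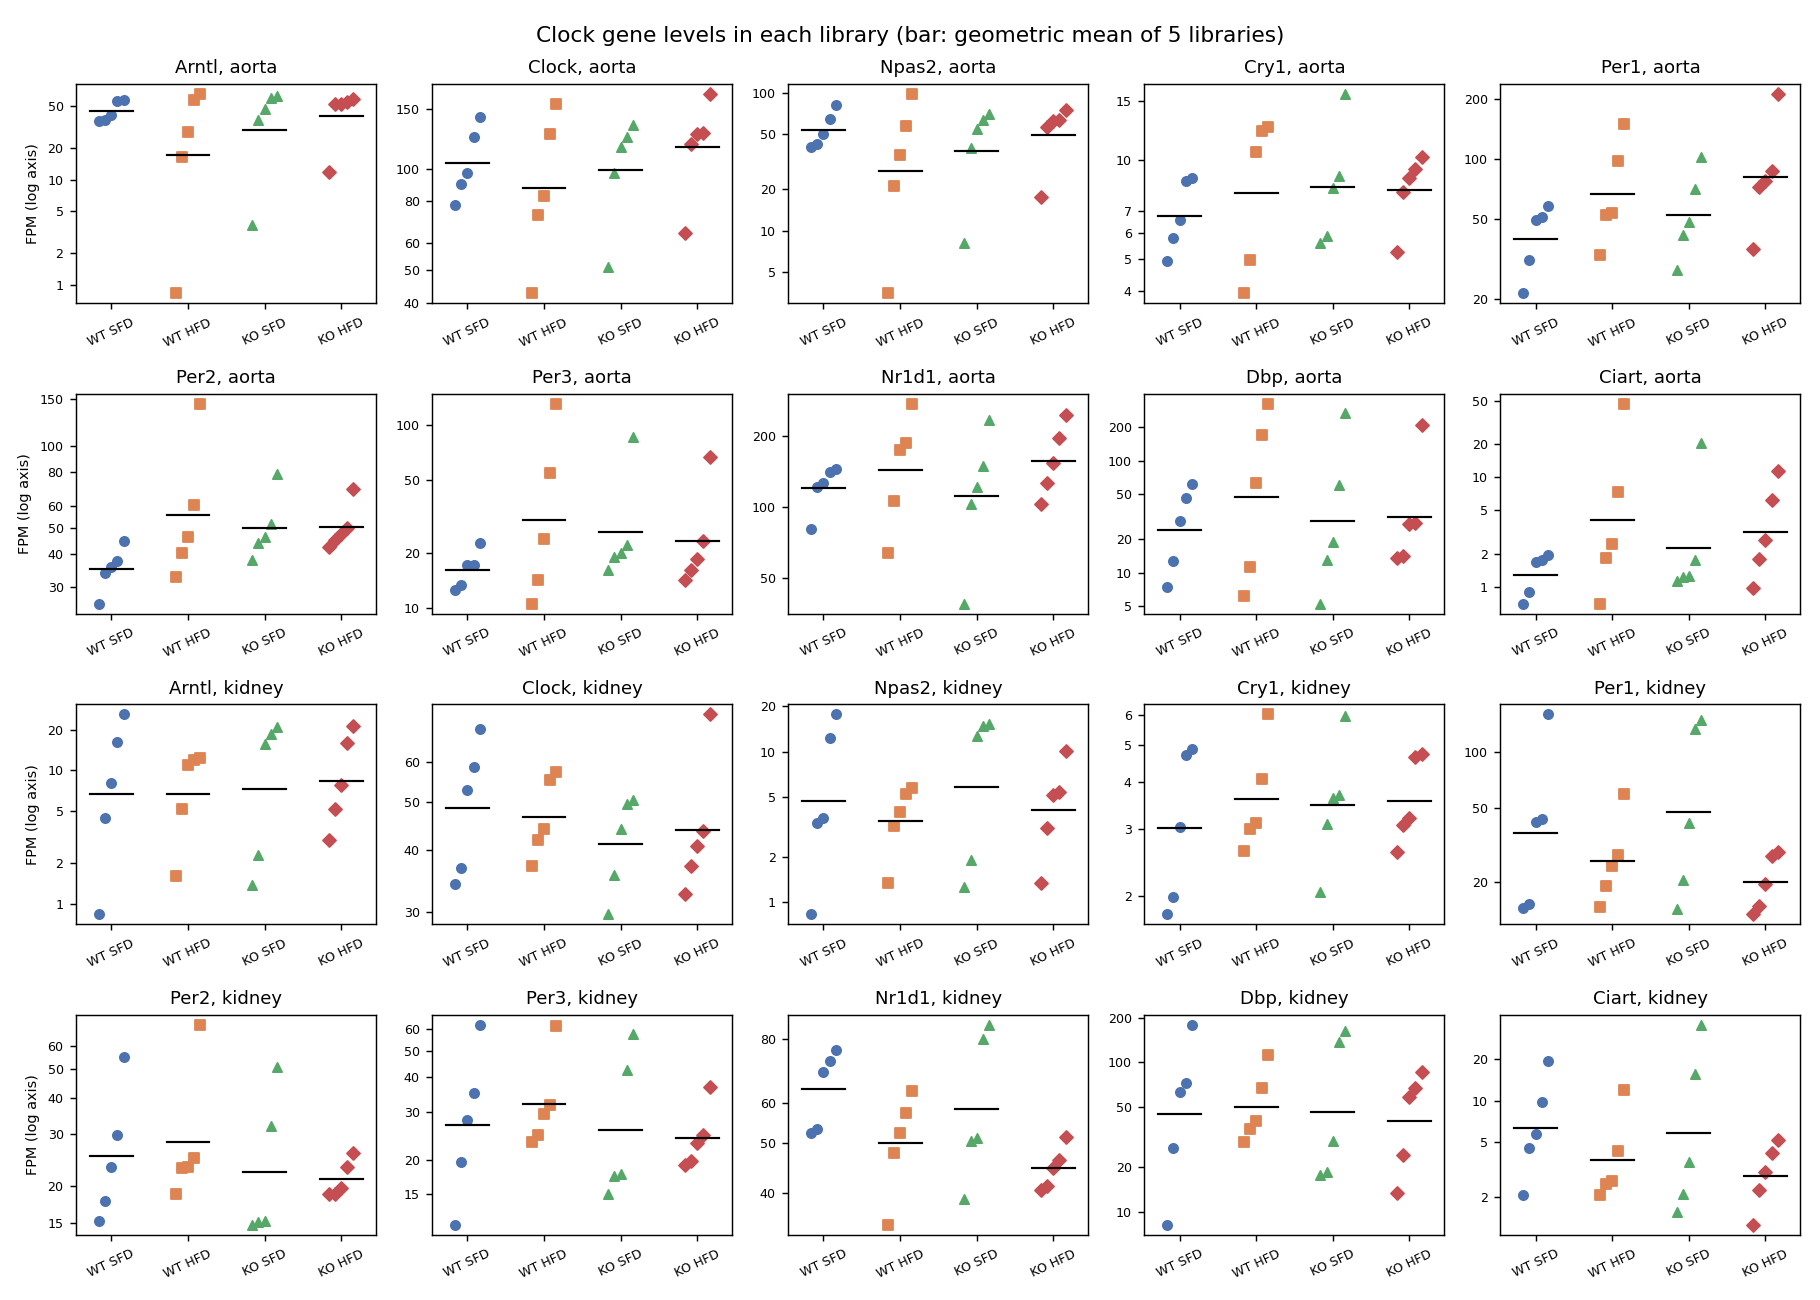
Level of each of the 10 genes in every library, in FPM on a log axis, by group; each point is 1 library and the bar is the geometric mean of the 5 libraries. The points of the groups overlap for every gene in both tissues, except those of WT SFD (52.5 to 76.2 FPM) and KO HFD (40.6 to 51.5 FPM) for Nr1d1 in kidney, and the spread within a group is widest for Arntl, Dbp and Ciart in aorta, where Arntl reaches from 0.825 to 66.1 FPM among WT HFD libraries.

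Among the repressors, Per3, Per2 and Ciart followed Dbp over all libraries, Per2 the least closely. Per3 (chr4:151003652-151044665), a paralog of Per1 and Per2, ranged from 10.6 FPM in aorta R-10 to 130.1 FPM in R-7 and from 11.6 FPM in kidney a19 to 62.3 FPM in a16. Per2 (chr1:91415982-91459324), whose protein carries CRY into the repressor complex, ranged from 26.1 to 143 FPM in aorta and from 14.8 to 71.0 FPM in kidney. Ciart (chr3:95878503-95882251), which encodes the CLOCK–BMAL1 repressor CHRONO, was low in most aortas, with a median of 1.77 FPM, and reached 46.8 FPM in R-7 and 20.5 FPM in R-11. The 4 highest aortas for Ciart, Per2 and Per3 were R-7, R-11, R-16 and R-6. The lowest Ciart value in aorta rested on 12 counts. Cry1 (chr10:85131700-85185064), which encodes a cryptochrome, ranged only 4.03-fold in aorta, from 3.93 to 15.8 FPM, and 3.36-fold in kidney, from 1.79 to 6.02 FPM. Its lowest and highest libraries were R-6 and R-15 in aorta and a18 and a11 in kidney. In aorta R-7 was second highest in Cry1 and R-6 lowest, and in kidney a11, a6 and a16, which were also among the 4 highest for Per2, Per3 and Dbp, were the 3 highest.

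Nr1d1 (chr11:98767932-98775333), the repressor of the second loop, ranged 7.0-fold in aorta, from 38.9 FPM in R-15 to 272 FPM in R-6, but only 2.47-fold in kidney, from 34.6 to 85.5 FPM. The annotated exons of Nr1d1 share 263 bases with Thra on the opposite strand, those of Dbp 539 bases with Sphk2, and those of Arntl 33 bases with Gm45355. The strand setting of the counting is not given in the sources used here, so reads from these bases could not be assigned. Nr1d1 and Thra did not track each other (r = -0.15 in aorta and 0.31 in kidney), nor did Dbp and Sphk2 (r = -0.23 and -0.16), and the adjusted permutation p of these 4 values was at least 0.478.

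The spread within groups, taken as the SD of log2 FPM around the group means, placed 5 members in each tissue among the most variable genes. In aorta the SD was 1.93 for Dbp, a value exceeded by 0.126% of the 15122 genes, 1.61 for Ciart (0.436%), 1.60 for Arntl (0.456%), 1.21 for Npas2 (1.96%) and 1.00 for Per3 (4.0%). In kidney it was 1.57 for Arntl, exceeded by 0.339% of the 15943 genes, 1.38 for Npas2 (0.759%), 1.34 for Dbp (0.872%), 1.29 for Ciart (1.07%) and 1.13 for Per1 (1.80%). The median gene had an SD of 0.33 in aorta and 0.25 in kidney. The other members lay between 0.50 and 0.79 in aorta and between 0.33 and 0.71 in kidney, all above the median gene. Csnk1d, a kinase that marks PER proteins for turnover, was among the steadiest genes, with an SD of 0.13 in aorta and 0.07 in kidney, and it is named here after its values were seen.

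**Figure D2:**
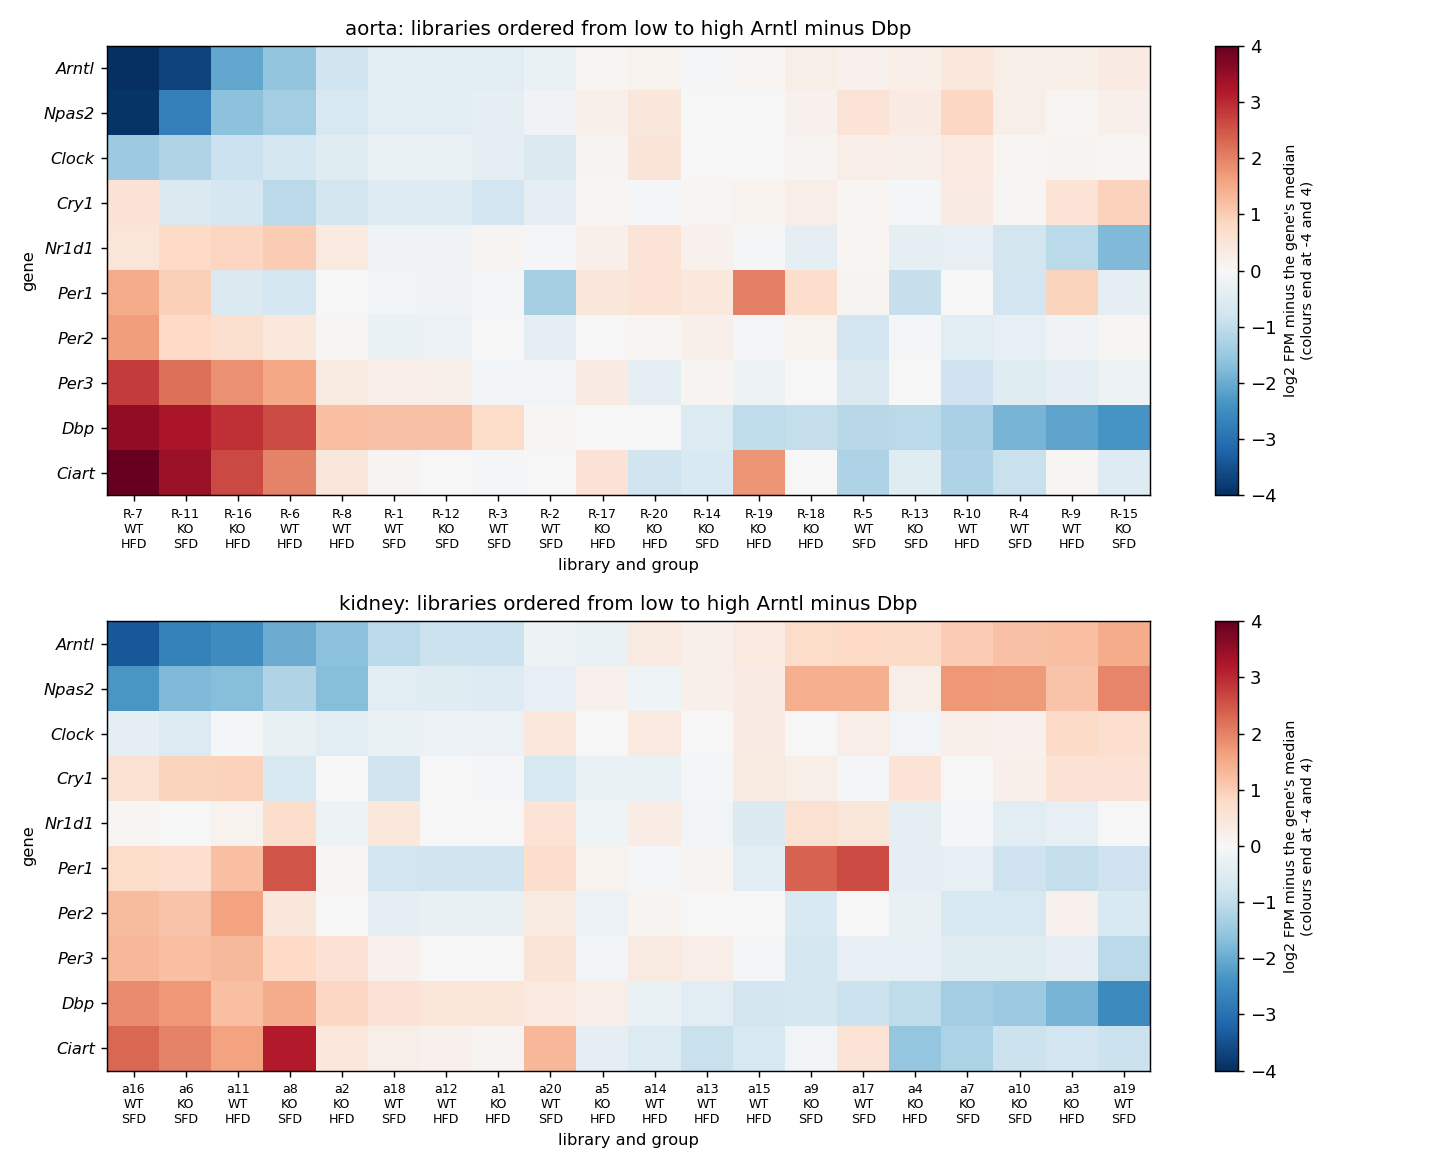
Log2 FPM of each gene minus its median over the 20 libraries of a tissue, one column per library, ordered from the lowest to the highest difference of Arntl minus Dbp. The blue upper left and red lower left corners show libraries with low Arntl and Npas2 and high Per3, Dbp and Ciart, among them R-7 and a16. The first columns, R-7, R-11 and R-16 in aorta and a16, a6 and a11 in kidney, belong to different groups. Some neighbouring columns further right share a group.

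Position on this axis was not a property of a group. On the log2 scale Arntl minus Dbp spanned -8.45 to 3.20 in WT HFD aortas, -6.13 to 3.55 in KO SFD, -4.13 to 2.05 in KO HFD and -0.75 to 2.95 in WT SFD aortas. In kidney it spanned -7.62 to 1.67 in WT SFD, -6.81 to 0.28 in KO SFD, -6.06 to -1.25 in WT HFD and -4.81 to 0.71 in KO HFD. WT SFD was the only aorta group with no library below -1, and the 4 kidney groups all reached below -4. With the total count of a library, Arntl and Dbp gave r between -0.08 and 0.18 in the 2 tissues (adjusted permutation p of at least 0.753). Without the 2 libraries farthest from the median total count, however, r in kidney was 0.512 for Arntl and -0.481 for Dbp.

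Pairs of genes were compared by the correlation of log2 FPM over the 19 libraries of a tissue, with permutation p-values adjusted over the 90 pairs of both tissues. Of 45 pairs, 29 passed an adjusted p of 0.05 in aorta, 12 positive and 17 negative, and 23 passed in kidney, 12 positive and 11 negative. The 21 pairs that passed in both tissues had the same sign in both, and they make up 21 of 29 pairs in aorta and 21 of 23 in kidney. Without the 4 farthest libraries 14 pairs passed in aorta and 20 in kidney, and 11 of the 29 and 15 of the 23 were among them with the same sign. Many genes that are no members correlated as strongly in aorta. The weakest passing member had r of size 0.548 with Arntl and 0.611 with Dbp in aorta, values reached by 31.1% and 31.4% of all genes tested, and 0.778 and 0.718 in kidney, reached by 0.634% and 0.803%. For no gene did the libraries fall into separate clusters, defined by a gap above 0.333 of the range with at least 3 libraries on both sides; Per3 in aorta (0.326) and Per1 in kidney (0.324) came closest. The libraries of a tissue share their diet and genotype groups, and their clock times are unknown, so a sign gives the relation between genes across animals and not an hour.

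By r, though not by rho in aorta, Arntl and Npas2 gave the closest positive relation. It had r = 0.986 and rho = 0.916 in aorta and r = 0.948 and rho = 0.954 in kidney. Arntl and Clock rose and fell together as well, with r = 0.905 and rho = 0.861 in aorta and r = 0.778 and rho = 0.793 in kidney. Arntl and Dbp were opposed, with r = -0.848 and rho = -0.928 in aorta and r = -0.953 and rho = -0.991 in kidney. Arntl and Per3 were opposed to a like degree, with r = -0.937 and rho = -0.786 in aorta and r = -0.922 and rho = -0.909 in kidney. The unadjusted permutation p of r was 1e-05, the smallest that these permutations can give, for these pairs in both tissues except Arntl and Clock in kidney, and the adjusted p of r was 3.46e-05 at the smallest and 3.34e-04 for Arntl and Clock in kidney. The adjusted p of rho was at most 4.70e-04. Without the 2 libraries farthest from the median of Arntl, r in aorta was 0.965 with Npas2, 0.879 with Clock, -0.917 with Dbp and -0.923 with Per3. In kidney the same values were 0.929, 0.713, -0.942 and -0.880, so that none of these relations rested on those libraries. Of all 15943 genes tested in kidney, Dbp had the most negative correlation with Arntl.

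The genes on the Dbp side moved together. Dbp and Per3 correlated with r = 0.899 and rho = 0.839 in aorta and r = 0.911 and rho = 0.904 in kidney, and with r = 0.844 and 0.866 without the 2 farthest libraries. Dbp and Ciart correlated with r = 0.815 and rho = 0.700 in aorta and r = 0.830 and rho = 0.835 in kidney, and with r = 0.682 and 0.824 without the 2 farthest libraries. Adjusted permutation p-values of these 4 relations were at most 1.74e-04 for r and 0.00273 for rho. In aorta the relation of Dbp and Ciart rested in part on the most extreme libraries, since without the 4 farthest r was 0.289 (adjusted permutation p = 0.415). Dbp and Per2 gave r = 0.741 in aorta and 0.718 in kidney (adjusted permutation p = 2.53e-04 and 0.00108). Without the 4 libraries farthest from the median of Per2, r was 0.407 and 0.478 (adjusted permutation p = 0.225 and 0.148).

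**Figure D3:**
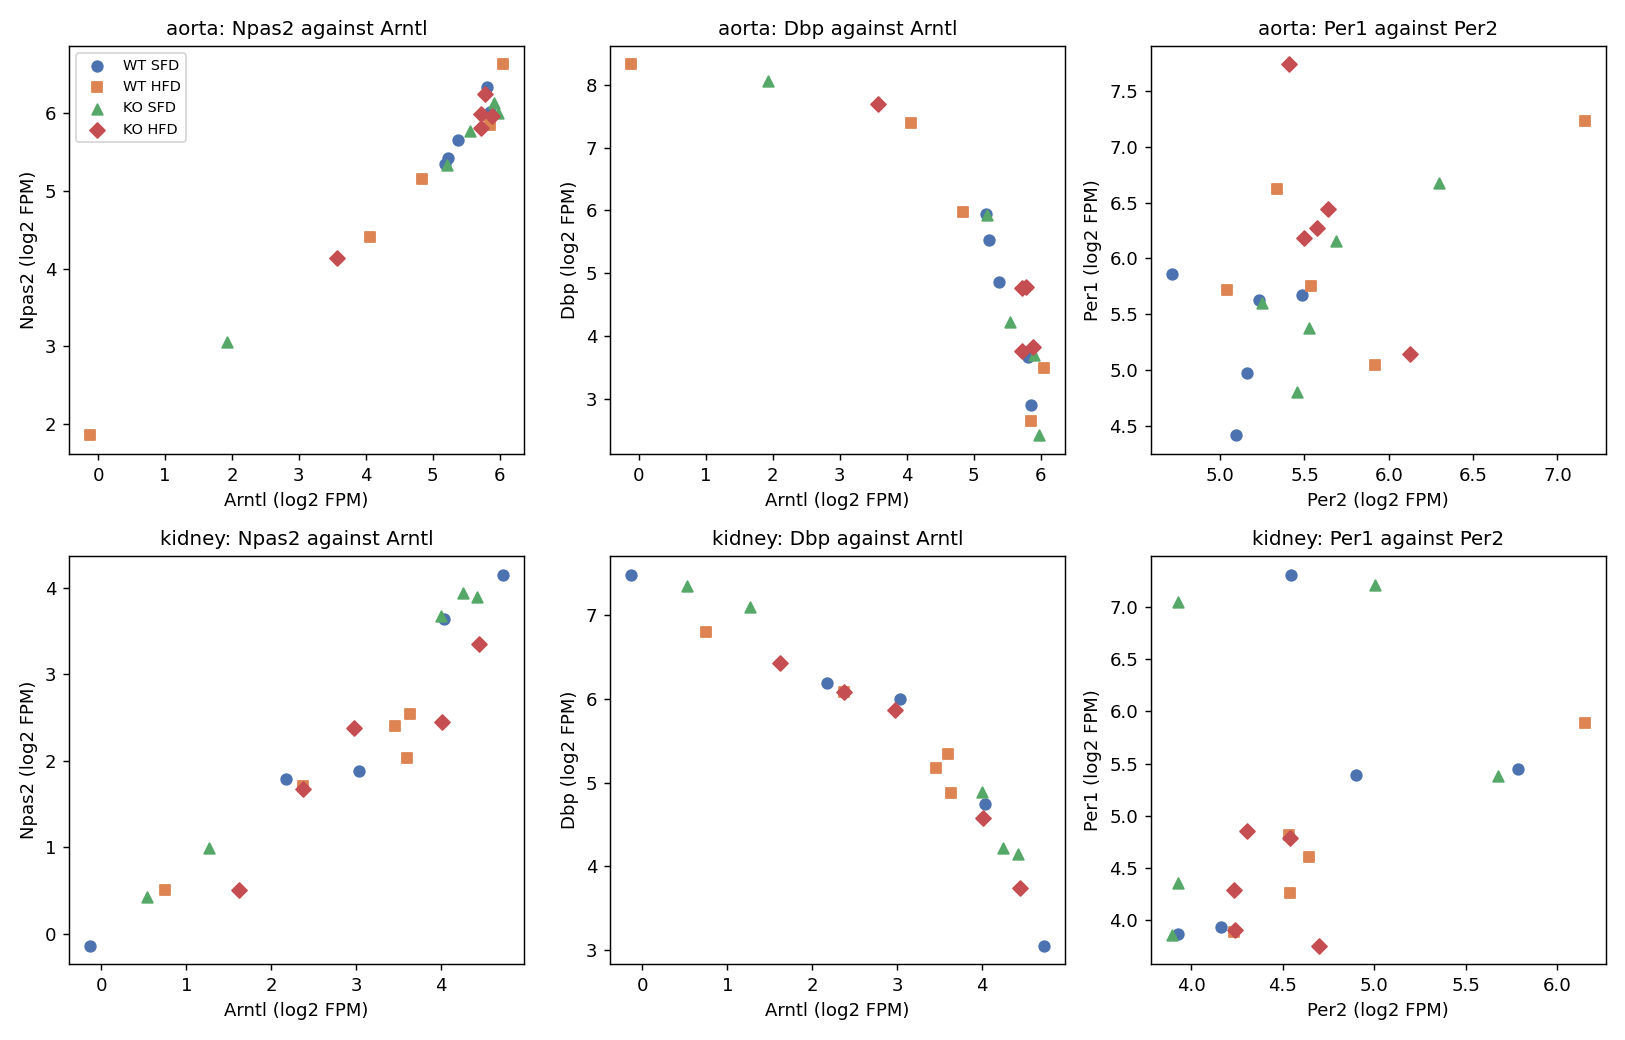
Log2 FPM of Npas2 against Arntl, Dbp against Arntl and Per1 against Per2, with aortas in the upper row and kidneys in the lower row; each point is 1 library and its shape and colour give the group. Npas2 rises and Dbp falls along Arntl in both tissues (r = 0.986 and -0.848 in aorta, 0.948 and -0.953 in kidney), and 3 kidneys lie above the others in Per1.

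Nr1d1 passed with Dbp and Arntl in aorta and with neither in kidney. In aorta it correlated with Dbp (r = 0.829, rho = 0.842, adjusted permutation p = 3.46e-05 and 2.25e-04), and r was 0.830 without the 2 farthest libraries. In aorta it was also opposed to Arntl (r = -0.548, adjusted permutation p = 0.0354, rho = -0.795, adjusted permutation p = 4.26e-04). This last relation had r = -0.691 without the 2 farthest libraries and r = -0.439 without R-11 and R-16 (adjusted permutation p = 0.155). In kidney Nr1d1 correlated with Dbp with r = 0.331 and rho = 0.400 (adjusted permutation p = 0.240 and 0.131), and with Arntl with r = -0.216 and rho = -0.305 (adjusted permutation p = 0.470 and 0.263). The difference between the tissues was not tested. Nr1d1 did pass in kidney with Per1 (r = 0.705, adjusted permutation p = 0.00152) and with Ciart (r = 0.549, adjusted permutation p = 0.0287). Without the kidneys a8, a9 and a17 these r were 0.374 and 0.474 (adjusted permutation p = 0.217 and 0.104).

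Cry1 and Arntl gave r = 0.169 in aorta (adjusted permutation p = 0.590) with rho = 0.565 (adjusted permutation p = 0.0229). R-7, lowest in Arntl, was second highest in Cry1, and without R-7 and R-11, the 2 libraries farthest from the median of Arntl, r was 0.796 (adjusted permutation p = 1.29e-04). In kidney r was -0.114 (adjusted permutation p = 0.718) and rho 0.012 (adjusted permutation p = 0.962), and without a16 and a6 r was 0.254. Without the 4 farthest libraries r was 0.858 in aorta and 0.624 in kidney (adjusted permutation p = 3.86e-04 and 0.0392). The size of this relation in both tissues, and its sign in kidney, thus depended on the libraries farthest from the median of Arntl.

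Per1 (chr11:69095217-69109960), the member that also responds acutely to stimuli, stood outside these relations in aorta. None of its 9 pairs passed there, and with Per2 it gave r = 0.375 and rho = 0.318 (adjusted permutation p = 0.174 and 0.245), or r = 0.226 without the 2 farthest libraries. The aorta highest in Per1, R-19 (KO HFD) at 213 FPM, was also the highest in summed immediate-early genes, at 18404 FPM. Over 19 aortas Per1 and this sum correlated with r = 0.726 and rho = 0.623 (adjusted permutation p = 0.00517 and 0.0470 over 38 such relations), and with r = 0.453 without the 2 libraries farthest from the median of the sum. In kidney Per1 and Per2 gave r = 0.365 and rho = 0.507 (adjusted permutation p = 0.177 and 0.0458). Without the kidneys a8, a9 and a17, which stood apart in immediate-early genes and in Per1, the remaining 16 libraries gave r = 0.837 (adjusted permutation p = 1.59e-04). Over all 19 kidneys Per1 and the immediate-early sum gave r = 0.836 and rho = 0.407 (adjusted permutation p = 0.00517 and 0.349 over 38 relations). Without the 2 libraries farthest from the median of the sum r was 0.690. Among the 16 kidneys other than a8, a9 and a17, Per1 and this sum gave r = 0.04 and rho = 0.01 (adjusted permutation p = 0.958 and 0.961 over 3 relations).

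**Figure D4:**
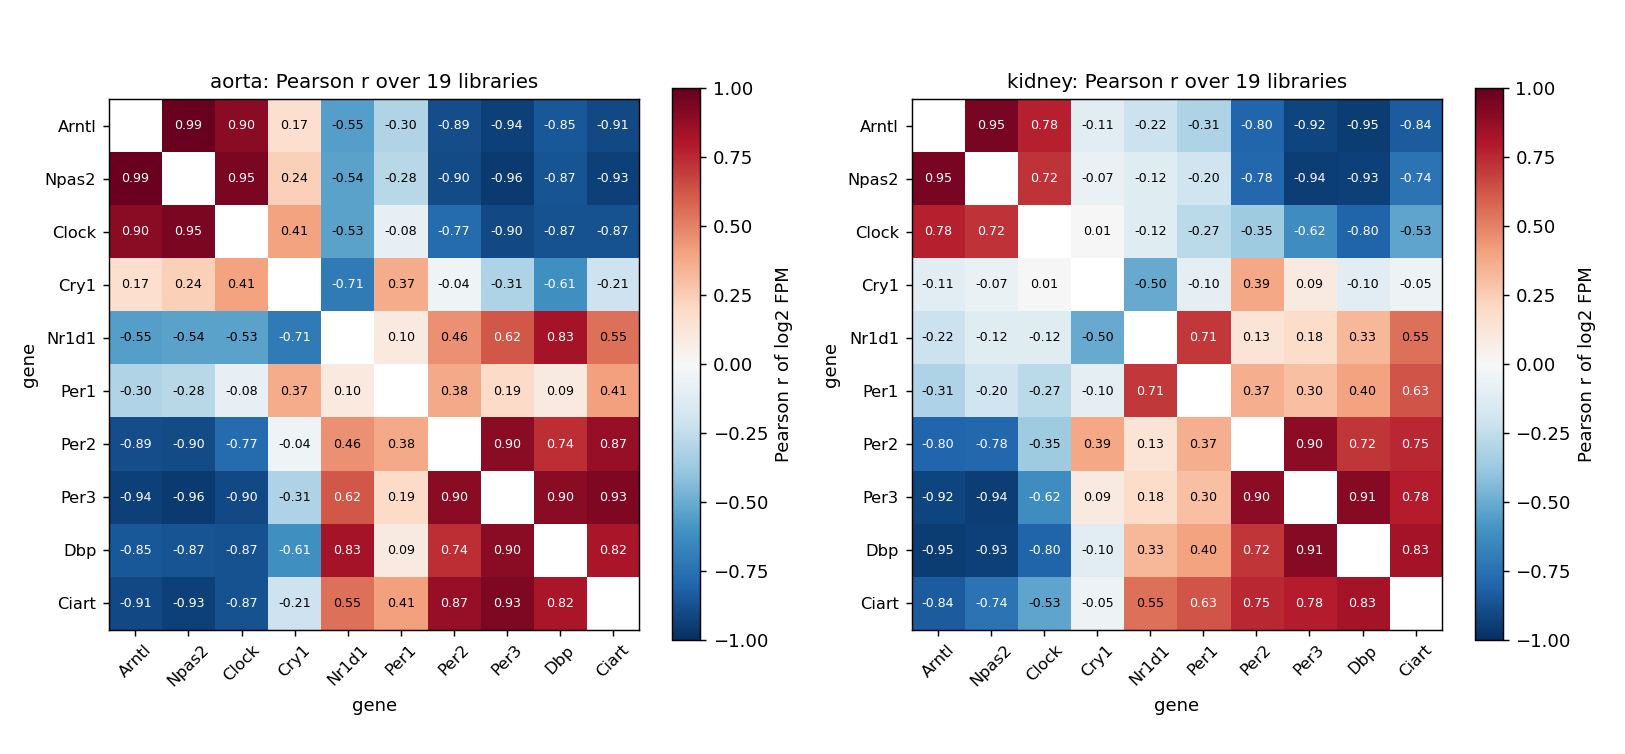
Pearson r of log2 FPM for the 45 pairs of genes over 19 libraries, aorta on the left and kidney on the right; red is positive and blue negative. Over these libraries Arntl, Npas2 and Clock form a positive block opposed to Per2, Per3, Dbp and Ciart in both tissues. The exception is Clock and Per2 in kidney, which at -0.35 did not pass (adjusted permutation p = 0.196). Without the 4 libraries farthest from the median of Arntl, r of Arntl in aorta was -0.150 with Per2 and -0.368 with Ciart. It stayed at -0.641 with Per3 and -0.861 with Dbp. In kidney the same 4 values were -0.302, -0.587, -0.778 and -0.936. Arntl then passed with neither Per2 nor Ciart in either tissue (adjusted permutation p of at least 0.0552). Nr1d1 correlates with Dbp at 0.83 in aorta and 0.33 in kidney.

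In aorta the clock axis moved with markers of blood, and with many other genes. An r of size 0.548 with Arntl and 0.611 with Dbp was reached by 31.1% and 31.4% of all genes tested there. The summed red blood cell markers correlated with Arntl (r = -0.682, rho = -0.763, adjusted permutation p = 0.00517 and 0.0103) and with Dbp (r = 0.726, rho = 0.709, adjusted permutation p = 0.00517 and 0.0146). Without the 2 libraries farthest from the median of this sum r was -0.661 and 0.732. Summed lymphoid markers correlated with Dbp (r = 0.751, rho = 0.612, adjusted permutation p = 0.00517 and 0.0497) and gave r = -0.638 with Arntl (rho = -0.705, adjusted permutation p = 0.0547 and 0.0146). Summed endothelial markers gave r = -0.519 with Dbp and 0.261 with Arntl (adjusted permutation p = 0.0933 and 0.530). In kidney the red blood cell sum gave r = -0.09 with Arntl and 0.08 with Dbp (adjusted permutation p = 0.855 for both). Without R-11 and R-16, Arntl gave r = 0.981 with Npas2 and -0.804 with Dbp over 17 aortas (adjusted permutation p = 6.43e-05 for both). The part of blood in the aortic values was not tested.

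Other genes of the clock, taken from a list of 21, were set against Arntl and Dbp in the same way. In aorta 18 of them passed the filter on low counts, the exceptions being Rora, Rorb and Usp2, and in kidney 19 passed, the exceptions being Rora and Usp2, which were listed at 0 in every library. As with Tagln and Cnn1 in aorta, a listed 0 does not show that a gene is not expressed. With Arntl, 11 of 18 correlated in aorta, 5 positively and 6 negatively, and 11 of 19 in kidney, 3 positively and 8 negatively, at an adjusted permutation p of 0.05 over 74 relations. With Dbp, 12 of 18 and 10 of 19 did so, 6 positively and 6 negatively in aorta and 8 positively and 2 negatively in kidney. In aorta much of the transcriptome correlated as strongly, since the weakest passing r, of size 0.507 with Arntl and 0.496 with Dbp, was reached by 37.5% and 46.9% of all genes tested. In kidney the weakest, 0.559 and 0.508, was reached by 4.54% and 6.21%. Tef, a PAR-bZIP relative of Dbp, gave r = 0.953 with Dbp in aorta and 0.902 in kidney. Bhlhe41, a repressor of E-box genes, gave r = 0.925 and 0.885, and Nr1d2, a relative of Nr1d1, r = 0.926 and 0.843. Nfil3, a repressor at D-boxes and named here after its values were seen, was opposed to Dbp, with r = -0.937 in aorta and -0.737 in kidney.

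Across all genes tested, the 5 most like Arntl in aorta were Npas2 (r = 0.986), Ccdc112 (0.952), Rnft1 (0.935), Unc119b (0.912) and Lox (0.911), and in kidney Npas2 (0.948), Avpr1a (0.914), Dtx4 (0.913), Ppm1h (0.908) and Npnt (0.905), each over 19 libraries. The 5 most like Dbp in aorta were Tcap (r = 0.980), Tef (0.953), Tmem86a (0.942), Pnmt (0.936) and Nr1d2 (0.926), and in kidney Per3 (0.911), Tef (0.902), Slc2a5 (0.891), Gm45051 (0.890) and Bhlhe41 (0.885). Npas2 was thus first for Arntl in both tissues, and Tef was second for Dbp in both. Tcap (chr11:98383811-98384953) and Pnmt (chr11:98386450-98388181) are neighbours on the plus strand of chromosome 11.

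Whether diet or endothelial Egfr deletion altered clock transcripts was tested with edgeR's quasi-likelihood test, with p-values adjusted by Benjamini-Hochberg over all genes of a tissue. For HFD a call also needed a fold above 1.5 and a mean above 5 FPM. No member was called in any of the 7 comparisons of either tissue. In aorta this was 0 of 10 for HFD in WT, where 0.00661% of all genes were called, for HFD in KO (0% of all genes), for HFD averaged over genotypes (0.0265%), for KO under SFD (0%), for KO under HFD (0%), for KO averaged over diets (0.0198%) and for the interaction (0%). In kidney 0 of 10 were called for HFD in WT, where 2.18% of all genes were called, for HFD in KO (2.16%), for HFD averaged over genotypes (2.86%), and for KO under SFD, KO under HFD, KO averaged over diets and the interaction (0% each). At an unadjusted p of 0.05, members passed in 5 of the 14 comparisons. Of 10 members these were 3 for HFD in WT, 1 for averaged HFD and 1 for the interaction in aorta. In kidney they were 3 for HFD in KO and 3 for averaged HFD. Of all genes 394 (2.61%), 1013 (6.7%), 127 (0.84%), 3112 (19.5%) and 4770 (29.9%) did so in the same comparisons. In the comparisons in which no gene was called, 127 to 884 genes in aorta and 285 to 768 in kidney had an unadjusted p under 0.05. With DESeq2 the count of members called was 1 (Per1) for averaged HFD in kidney and 0 in the other comparisons.

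The 95% intervals show what the spread allowed. For averaged HFD in aorta they were 0.918 to 3.20 log2 units wide over the 10 members, and in kidney 0.561 to 2.44. Dbp, for example, differed by 0.76 between HFD and SFD aortas with an interval of -0.83 to 2.36, and by -0.43 in kidney with an interval of -1.56 to 0.71. The interval of Dbp thus held 0 and rises of up to 2.36 log2 units in aorta, and 0 and differences down to -1.56 in kidney.

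Per1 was the member with the largest HFD-minus-SFD difference relative to its error in aorta when genotypes were averaged. It was at 49.5, 21.3, 51.1, 31.3 and 57.9 FPM in WT SFD and at 32.9, 150.1, 53.8, 98.3 and 52.5 FPM in WT HFD aortas. It was at 102, 48.4, 27.8, 71.1 and 41.6 FPM in KO SFD and at 35.4, 72.4, 86.8, 213 and 77.4 FPM in KO HFD aortas. The ranges overlapped in both genotypes. The averaged difference was 0.81 ± 0.33 on the log2 scale (SE, n = 10 against 10; adjusted p = 0.622), or 0.55 without R-19. Summed immediate-early genes had their highest group median, 4720 FPM, in the same KO HFD aortas, against 1805 to 3163 FPM in the other groups, and their part in the difference was not tested.

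In WT aortas Ciart, Per3 and Per2 stood higher under HFD, with log2 differences of 3.07 ± 1.09, 1.49 ± 0.63 and 0.86 ± 0.31 (SE, n = 5 against 5) and an unadjusted p of 0.0108, 0.0289 and 0.0124, but an adjusted p of 1.00 each. Ciart was at 1.94, 1.76, 1.69, 0.906 and 0.702 FPM in WT SFD and at 7.35, 46.8, 2.45, 1.84 and 0.702 FPM in WT HFD aortas. The difference lay in R-7 and R-6, and without R-7 it was 1.14 for Ciart, 0.63 for Per3 and 0.34 for Per2. In KO aortas Ciart was at 20.5, 1.74, 1.25, 1.14 and 1.22 FPM under SFD and at 11.5, 2.68, 1.79, 6.19 and 0.987 FPM under HFD, a log2 difference of -0.16 ± 1.00. The interaction for Ciart was -3.23 ± 1.46 (unadjusted p = 0.0393, adjusted p = 1.00), and -1.30 without either R-7 or R-11.

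In kidney Per1, Nr1d1 and Ciart stood lower under HFD, and none passed the adjusted threshold. Per1 was at 43.6, 158, 15.3, 14.5 and 41.9 FPM in WT SFD and at 59.4, 14.7, 28.05, 24.3 and 19.1 FPM in WT HFD kidneys. It was at 41.5, 20.5, 148, 132 and 14.4 FPM in KO SFD and at 14.9, 27.6, 13.4, 19.5 and 28.8 FPM in KO HFD kidneys. The 3 values above 100 FPM were a17, a8 and a9, all under SFD and the same 3 kidneys with high immediate-early genes; the other SFD kidneys overlapped the HFD kidneys. The averaged HFD-minus-SFD difference of Per1 was -1.35 ± 0.49 on the log2 scale (SE; 95% interval -2.38 to -0.31; adjusted p = 0.0713). Without a8, a9 and a17 it was -0.14 (adjusted p = 0.848). Leaving out the 3 highest values, all on the SFD side, must shrink this difference, so that value does not test diet.

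Nr1d1 came closest to the threshold. It was at 53.2, 72.6, 69.1, 52.5 and 76.2 FPM in WT SFD and at 57.3, 52.4, 47.9, 63.3 and 34.6 FPM in WT HFD kidneys. It was at 51.1, 50.5, 85.5, 80.1 and 38.8 FPM in KO SFD and at 51.5, 44.8, 41.2, 40.6 and 46.5 FPM in KO HFD kidneys. The diets overlapped in both genotypes, and a8 and a9 were again the highest. The averaged difference was -0.39 ± 0.13 (SE; 95% interval -0.67 to -0.11; adjusted p = 0.0507), a fold below the 1.5 needed for a call, and -0.17 without a8, a9 and a17 (adjusted p = 0.361). These kidneys are all SFD and high in Nr1d1, so the limit given for Per1 holds for this last value. For Ciart, which reached 35.6 FPM in a8, 19.5 in a16 and 15.8 in a6, the averaged difference was -1.35 ± 0.56 (adjusted p = 0.112), and -0.97 without the 3 kidneys (adjusted p = 0.293).

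The KO-minus-WT differences averaged over diets passed the threshold for no member. In aorta they lay between 0.05 for Npas2 and 0.39 for Per1, 10 of 10 above 0, with a median of 0.13 against 0.00 over all genes tested. For 5 members the sign depended on 2 libraries, since without R-11 and R-16 the difference was -0.054 for Per2, -0.55 for Per3, -0.18 for Nr1d1, -1.40 for Dbp and -1.02 for Ciart, with adjusted p of at least 0.287. The other 5 stayed above 0, at 0.45 for Arntl, 0.34 for Clock, 0.32 for Npas2, 0.28 for Cry1 and 0.37 for Per1, against 0.16, 0.15, 0.054, 0.13 and 0.39 with all libraries, with adjusted p of at least 0.358. R-11 and R-16 are both KO, whereas R-7 and R-6 are WT and were kept. These aortas together were the lowest in Arntl and the highest in Dbp. Leaving out only the KO libraries among them lowers Dbp and raises Arntl in KO by choice, so these values do not test genotype. In kidney the KO-minus-WT differences lay between -0.37 ± 0.30 for Per2 and 0.33 ± 0.53 for Npas2, with a median of -0.06 and adjusted p of at least 0.802. Averaged over genotypes, the median HFD-minus-SFD difference of the 10 members was 0.39 in aorta and -0.34 in kidney, against 0.00 over all genes tested in both.

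**Figure D5:**
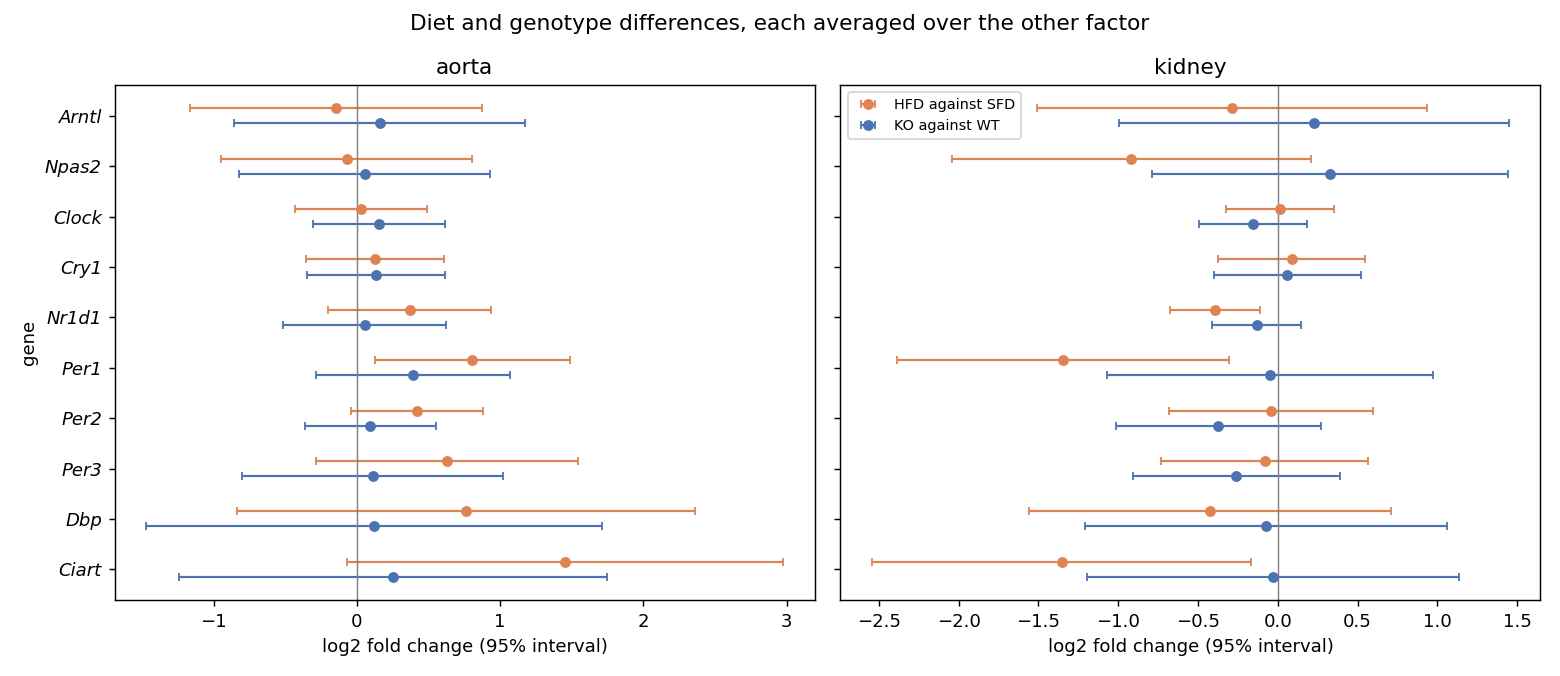
Log2 difference of HFD minus SFD averaged over genotypes and of KO minus WT averaged over diets for the 10 genes, with 95% intervals from the fit over 20 libraries per tissue. Most intervals cover 0, the exceptions being Per1 for diet in aorta (0.81) and Per1, Nr1d1 and Ciart for diet in kidney (-1.35, -0.39 and -1.35), none of which passed the adjusted threshold.

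Of the other clock genes none was called in any of the 14 comparisons, by the same rules. For averaged HFD in kidney Arntl2, a paralog of Arntl, differed by 0.48 (adjusted p = 0.0440) and Fbxl21, which encodes an F-box protein that acts on cryptochromes, by -0.32 (adjusted p = 0.0236), both below the fold needed for a call.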

How the data were processed

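Poly(A) RNA of 20 aortas and 20 kidneys was sequenced as paired ends. The authors deposited raw read counts per gene, made with featureCounts on the mouse build GRCm38 (mm10); the submitters' processing notes name HISAT2 2.1.0, whereas the study's methods name another aligner. Genes were matched by symbol to their annotated positions. The 10 genes and the lists of other clock genes, immediate-early genes and cell markers were chosen with earlier results of these data known.

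Counts were filtered (filterByExpr), scaled by TMM and fitted in edgeR 4.0.16 (R 4.3.3; robust quasi-likelihood) with 4 group means over 20 libraries per tissue. Calls required an adjusted p under 0.05 (Benjamini-Hochberg) and, for HFD, a fold over 1.5 and a mean over 5 FPM in 1 group. The script was tested on simulated data. Correlations used log2 FPM (prior count 2), two-sided permutation p-values from 1e+05 resamples and each near-identical pair as 1 library. Alternatives were DESeq2 1.42.0 (size factors, Wald test), other filters, no robust estimation, a prior of 0.5, only the groups compared, and left-out libraries. Members, other clock genes named by rule, the 5 genes most like Arntl and Dbp, and Egfr are named. P-values measure the spread between these samples, which the labels do not tie to separate animals.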

Additional observations from a re-analysis of the deposited data

Results flagged for a closer look

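In groups of 5, a library was looked at again where its gap to the nearest other library on the log2 scale exceeded 0.71 of the group's range. This held for 8 of the 80 groups of 1 gene in 1 tissue, 7 of them in aorta and 1 in kidney. Over all 80 groups of both tissues chance alone would give 4. The genes are correlated and the aortic flags all fell on R-11 and R-16, so these counts are not a test. Aorta R-16 lay apart in the KO HFD group with Arntl at 11.7 FPM and Npas2 at 17.4 FPM, both lowest, and Dbp at 207 FPM, highest. Aorta R-11 lay apart in the KO SFD group with Arntl at 3.72 FPM and Npas2 at 8.18 FPM, both lowest, and with Ciart at 20.5 FPM and Per3 at 85.8 FPM, both highest. In kidney, a11 lay apart in the WT HFD group with Per2 at 71.0 FPM, highest. R-11 and R-16 are also the aortas with the highest lymphoid and red blood cell markers, and the part of these in the values was not tested. The WT HFD aorta R-7, lower in Arntl than both at 0.825 FPM, was not singled out in this way, because R-6 of the same group was low as well.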

How the results depend on the processing

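The count of members called stayed at 0 in all alternatives except for averaged HFD in kidney, where it was 1 (Per1) with DESeq2's Wald test and without a10, a11 or a19 (range 0 to 1 over left-out libraries). The pairs passing in aorta numbered 14 without the 4 farthest libraries, against 29, and 11 of the 29 were among the 14. Arntl and Cry1 in kidney changed sign, from -0.11 to 0.012 by Spearman and 0.62 without the 4 farthest. The alternatives that leave out R-11 and R-16, the kidneys a8, a9 and a17, or the 4 farthest libraries were added after the data were seen. Without R-11 and R-16, which are both KO, KO minus WT in aorta was -0.054 for Per2, -0.55 for Per3, -0.18 for Nr1d1, -1.40 for Dbp and -1.02 for Ciart. Cry1 for HFD in kidney was -0.021 without a8, a9 and a17. Without both near-identical kidneys Per2 for HFD was 0.051. Leaving out single libraries turned the sign of small values. For HFD in aorta the range was -0.34 to 0.013 for Arntl, -0.088 to 0.13 for Clock and -0.35 to 0.079 for Npas2. For KO in aorta it was -0.096 to 0.33 for Npas2, -0.023 to 0.21 for Cry1, -0.0063 to 0.36 for Per2, -0.27 to 0.54 for Per3, -0.11 to 0.19 for Nr1d1, -0.66 to 0.56 for Dbp and -0.71 to 1.22 for Ciart. For HFD in kidney it was -0.49 to 0.011 for Arntl, -0.10 to 0.088 for Clock, -0.028 to 0.21 for Cry1, -0.30 to 0.16 for Per2 and -0.24 to 0.13 for Per3. For KO in kidney it was -0.061 to 0.17 for Cry1, -0.28 to 0.42 for Per1, -0.34 to 0.28 for Dbp and -0.55 to 0.31 for Ciart. None of these was past the threshold, and the cause was not tested. Counts over all genes ranged more widely, from 0 to 131 for averaged KO in aorta (3 in the fit reported), 1 to 15 for averaged HFD in aorta (4), 0 to 25 for KO under HFD in aorta (0), 0 to 6 for HFD in WT aortas (1), 0 to 2 for HFD in KO aortas (0), 394 to 2615 for averaged HFD in kidney (456), 289 to 1069 for HFD in WT kidneys (347), 295 to 1011 for HFD in KO kidneys (344) and 0 to 1 for averaged KO in kidney (0). The SD within groups moved by -1.6% to 0.368% with DESeq2 size factors, by 0.0702% to 2.13% with a prior count of 0.5 and by -0.662% to 8.33% without the near-identical libraries. No paired analysis was possible because every library has a label of its own. With 5 libraries a group and unknown clock times, differences within the spread of the clock could not be detected.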
